A study of Mus musculus with 6 samples.

Results

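Connexins are the membrane proteins that build gap junctions, the clusters of channels through which neighbouring cells exchange ions and small molecules. The genes described here are Gja1, Gja3, Gja4, Gja5, Gjc1 and Gjb2, a group fixed by name and not by measured values. All 6 were on the array, each as 1 probe whose annotation gave exactly 1 gene symbol, out of 21789 such probes for 19938 genes. Their transcript levels were compared between hearts of 3 mice labelled as Cenpf knockout and hearts of 3 wild-type mice, with 1 array for each heart. All mice were aged 12 months, were untreated and were labelled as biological replicates. The question the series names is how hearts without Cenpf, which encodes a microtubule-binding protein of the kinetochore, differ from wild-type hearts. The sources used here give neither strain nor sex, nor which part of Cenpf was deleted or in which cells.

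In a gap junction the hemichannel of one cell docks onto that of its neighbour. In heart muscle most such channels lie at the intercalated discs, where they carry the electrical impulse from cell to cell. Newly made hemichannels of Cx43, the product of Gja1, are known to travel along microtubules to the disc, helped by the plus-end protein made by Mapre1 and by dynactin. In the heart Gja1 is the main connexin of working muscle. Gja5 (Cx40) serves atrial muscle, the fast conduction system and arterial endothelium, Gja4 (Cx37) serves endothelium, and Gjc1 (Cx45) is best known from the nodes. Gja3 (Cx46) is best known from the lens, and Gjb2 (Cx26) from epithelia and the inner ear.

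Promoter windows from RefSeq (GRCm38.p6) were held for 5 of the 6 genes, each with 250 bases before and 50 after a transcript start. Those of Gja1, the main muscle connexin, and of Gja4 and Gja5, the connexins of arterial endothelium, are shown because the values of these genes are set against their transcription factors and cell markers further on. Capitals mark the match to the AP-1 motif TGANTCA in Gja1 and to the GC box GGGCGG in the other windows, read on both strands.
Gja1 (chr10:56377050-56377349, plus strand): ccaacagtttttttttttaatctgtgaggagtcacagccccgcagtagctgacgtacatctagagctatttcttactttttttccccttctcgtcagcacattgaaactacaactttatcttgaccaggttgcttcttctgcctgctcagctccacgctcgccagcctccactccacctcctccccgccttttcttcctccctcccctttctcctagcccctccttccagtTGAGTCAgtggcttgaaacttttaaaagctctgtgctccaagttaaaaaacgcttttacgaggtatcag
Gja4 (chr4:127313990-127314289, minus strand): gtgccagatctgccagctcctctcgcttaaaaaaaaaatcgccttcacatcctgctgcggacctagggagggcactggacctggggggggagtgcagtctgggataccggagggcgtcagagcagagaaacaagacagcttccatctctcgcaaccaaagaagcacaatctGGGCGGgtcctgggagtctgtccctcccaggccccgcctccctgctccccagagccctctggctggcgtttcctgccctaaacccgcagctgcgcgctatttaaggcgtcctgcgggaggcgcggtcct
Gja5 (chr3:97032152-97032451, plus strand): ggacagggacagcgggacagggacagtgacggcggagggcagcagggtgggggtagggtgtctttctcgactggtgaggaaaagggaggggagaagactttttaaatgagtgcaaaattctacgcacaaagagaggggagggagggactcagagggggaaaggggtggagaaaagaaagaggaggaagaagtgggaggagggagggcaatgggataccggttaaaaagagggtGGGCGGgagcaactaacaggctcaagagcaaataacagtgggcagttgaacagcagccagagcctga
AP-1 is the site of Jun and its partners, and the GC box is that of Sp1. The AP-1 match of Gja1 began 19 bases before the start, and 7.81% of all 32851 windows of 300 bases held this motif. Of the 6 member windows, 2 of them for Gja3, only that of Gja1 held it. The GC box was found in windows of Gja3, Gja4, Gja5 and Gjb2 and in 35.7% of all windows. The core AAGTG, bound by factors of the Nkx2-5 kind, lay in Gja5 and in 1 window of Gja3, against 46.4% of all windows. The T-box core GGTGTG was in 0 of the 6 windows and in 19.0% of all, and the GATA letters AGATAA were in that of Gja1 and in 11.2% of all. No match in these windows overlapped another, and binding was not measured.

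Values are given as deposited, in log2 units, and their array medians lay between 6.92 and 6.97. A background level of 6.35 was set from olfactory and vomeronasal receptor probes, taken as silent in heart. Cenpf itself read 6.35, 6.10 and 6.68 in the knockout hearts and 8.75, 8.54 and 8.04 in the wild-type hearts, and it fell by 2.07 (standard error 0.21, limma, adjusted p = 0.0286). Knockout replicates 1 and 2 were no brighter than the background level, which leaves the full size of the fall unresolved. That call was kept in 10 of 16 alternatives, where its adjusted p ranged from 0.00508 to 0.281, and it was lost without any 1 heart other than wild-type replicate 3 and with the whole table tested. Where this probe lies relative to the deleted part is not known here. The fall is that of this probe's signal, and it does not show which part was lost. All 9 ventricular muscle markers, such as Myl2, Tnni3 and Actc1, lay above the background level. Knockout replicate 1 and wild-type replicate 3 had the lowest of limma's array weights, 0.532 and 0.539, which fall as an array departs more from its group. Of the other cell types listed, the means of 2 measured erythroid markers did not overlap between groups, at 0.28 to 0.49 in knockout hearts and -0.65 to -0.042 in wild-type hearts, nor did those of 4 adipocyte markers, at -0.33 to -0.15 in knockout hearts and -0.12 to 0.60 in wild-type hearts. A whole heart sample holds many cell types, and fewer cells of a type cannot be told apart from less RNA per cell.

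None of the 6 connexins changed between knockout and wild-type hearts at an adjusted p under 0.05 by limma, with Benjamini-Hochberg adjustment over 21789 probes. At an unadjusted p under 0.05 the count was also 0. Over all probes tested, 0.0275% passed the adjusted threshold, 6 in number, and 9.90% had an unadjusted p under 0.05. In 0 of the 6 genes were the groups free of overlap, against 14.8% of all probes, 7.33% with higher and 7.47% with lower knockout values. The 6 differences, all knockout minus wild-type on the log2 scale, ran from -0.24 for Gja4 to 0.22 for Gjb2, with a median of -0.07. Leaving out knockout replicate 1 gave a median of 0.021, and leaving out wild-type replicate 3 gave -0.12. The median over all probes was -0.0082, and the median size of a difference regardless of sign was 0.11.

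Gja1, the main gap junction gene of working heart muscle, read 11.96, 12.39 and 12.42 in the knockout hearts, against 12.43, 12.39 and 12.24 in the wild-type hearts. Knockout replicate 1 was the lowest of all 6 hearts, and the other knockout hearts lay within the wild-type range. The mean was 12.26 ± 0.26 in knockout hearts and 12.36 ± 0.10 in wild-type hearts (SD, n = 3 each). The difference was -0.10 (standard error 0.14, limma, adjusted p = 0.839). Its 95% interval ran from -0.42 to 0.23, which in linear terms is from 0.745 to 1.17 times the wild-type level. The sign rested on 1 heart, since without knockout replicate 1 the difference was 0.05 (adjusted p = 0.874).

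In that same heart, knockout replicate 1, fibroblast markers averaged 0.35 and leukocyte markers 0.37 above their means over the 6 hearts, the highest value of either list. All 10 fibroblast and 8 of 9 leukocyte markers exceeded the background level in one group or both. The fibroblast list ranged from -0.32 to 0.35 in knockout hearts and from -0.21 to 0.28 in wild-type hearts. The leukocyte list ranged from -0.23 to 0.37 in knockout hearts and from -0.26 to 0.22 in wild-type hearts. Atrial muscle markers were also highest in knockout replicate 1, at 0.35. So were the erythroid (0.49), lymphatic (0.24), endothelial (0.15) and arterial endothelial (0.15) lists. Ventricular muscle markers stood at -0.020 in knockout replicate 1, inside the range of the other hearts, but the members of that list were split. Myh7 (11.48) and Myl3 (13.27) were highest in this heart, Ryr2 (12.07), Myh6 (13.41) and Myl2 (13.26) lowest, and the rest lay between. Whether these markers have a part in the low Gja1 value was not tested.

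**Figure D1:**
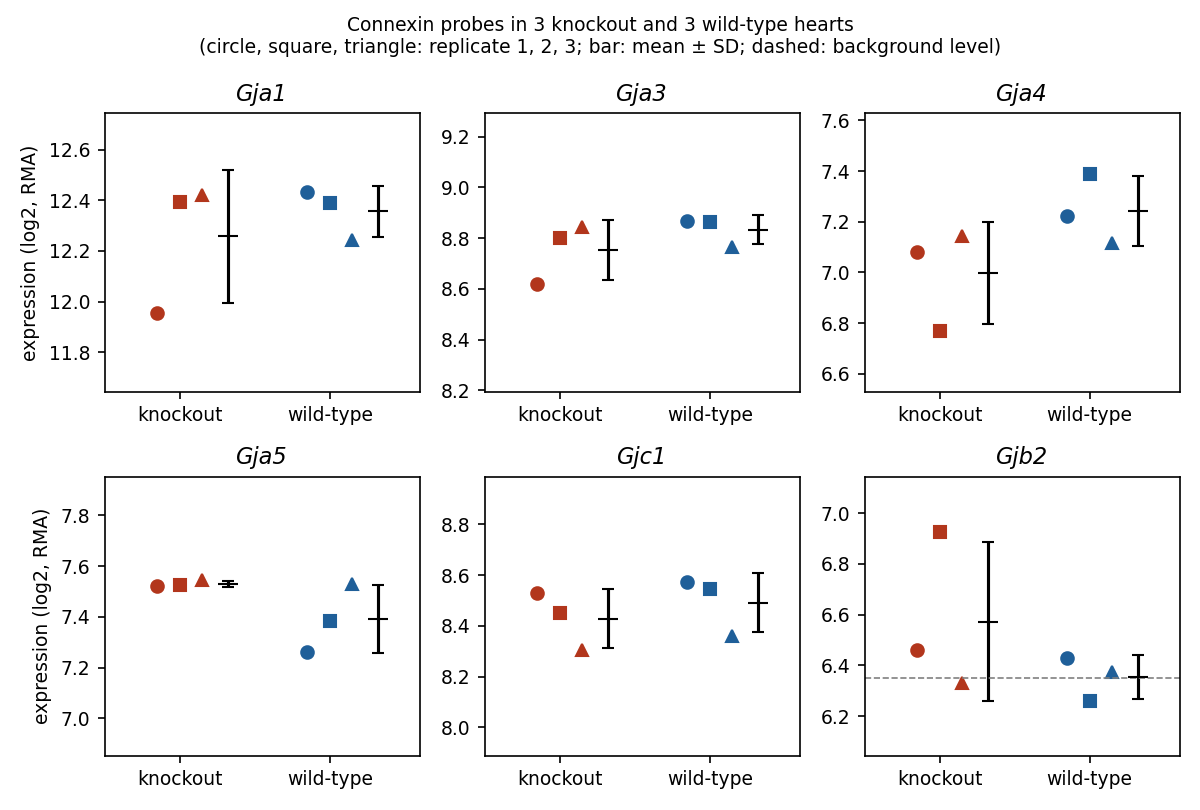
Deposited log2 values of the 6 connexin probes (y axis, log2 RMA units) in 3 knockout and 3 wild-type hearts, with symbols for the replicate number and bars for the mean ± SD. The groups overlap in all 6 panels, Gja1 is lowest in knockout replicate 1 at 11.96, and Gjb2 lies close to the dashed background level of 6.35.

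Gjc1, whose product Cx45 joins cells of the sinoatrial and atrioventricular nodes, read 8.53, 8.45 and 8.30 in the knockout hearts and 8.57, 8.54 and 8.36 in the wild-type hearts. The ranges overlapped, with knockout replicate 3 lowest and wild-type replicate 1 highest. Its difference was -0.06 with a standard error of 0.11 and a 95% interval from -0.31 to 0.19 (limma, adjusted p = 0.870). It was the smallest difference of the group, and 69.9% of all probes differed by more. Without knockout replicate 3 it was -0.00078.

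Conduction system markers gave 0 calls. They averaged between -0.10 and 0.033 in knockout hearts and between 0.015 and 0.089 in wild-type hearts around their means over the 6 hearts, with 5 of 6 measured markers above the background level. Hcn4, the pacemaker channel gene of that list, lay above the background level in both groups.

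Gja3, the lens connexin, read 8.62, 8.80 and 8.84 in the knockout hearts, against 8.87, 8.86 and 8.77 in the wild-type hearts. Like Gja1 it was lowest in knockout replicate 1 and highest in wild-type replicate 1. Its difference was -0.08 with a standard error of 0.10 and a 95% interval from -0.31 to 0.15 (limma, adjusted p = 0.817). Without knockout replicate 1 it was -0.011. The probe lay 2.45 above the background level on average, a statement on this probe's signal and not on Cx46 protein.

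Gja4 and Gja5 encode the connexins of arterial endothelium. Gja4 read 7.08, 6.77 and 7.14 in the knockout hearts, against 7.22, 7.39 and 7.12 in the wild-type hearts. All 3 knockout values lay below the wild-type mean, yet knockout replicate 3 lay above wild-type replicate 3. The mean was 7.00 ± 0.20 in knockout hearts and 7.24 ± 0.14 in wild-type hearts (SD, n = 3 each), and the difference was -0.24 (standard error 0.13, limma, adjusted p = 0.565). This was the largest difference of the 6 in size and had the smallest unadjusted p, 0.0970, and 17.8% of all probes differed by more. The 95% interval, -0.54 to 0.05, spans levels from 0.687 to 1.04 times those of wild-type hearts. The value was -0.13 without knockout replicate 2, the lowest heart.

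Gja5 read 7.52, 7.52 and 7.55 in the knockout hearts, against 7.26, 7.38 and 7.53 in the wild-type hearts. The knockout hearts lay close together, with an SD of 0.013 against 0.13 in wild-type hearts, and only wild-type replicate 3 reached them. The difference was 0.14 with a standard error of 0.10 and a 95% interval from -0.09 to 0.37 (limma, adjusted p = 0.666). Without wild-type replicate 3 it was 0.21 (adjusted p = 0.369), and without wild-type replicate 1 it was 0.07 (adjusted p = 0.904). In linear terms the interval ran from 0.937 to 1.30 times the wild-type level.

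Markers of the cells that use Gja5 and Gja4 gave 0 calls as well. Of 10 arterial endothelial markers, connexins left out, 9 were higher in direction in knockout hearts, with a median difference of 0.12, and 9 lay above the background level. The list averaged 0.058 to 0.15 above its mean over all hearts in the knockout group and -0.11 to -0.043 in the wild-type group, so its array means did not overlap. Those of 9 general endothelial markers did not overlap either, at -0.0035 to 0.15 in knockout hearts and -0.11 to -0.016 in wild-type hearts. Of these 9 markers 7 were higher in direction and 2 lower, Emcn at -0.27 and Pecam1 at -0.027. Over all 21789 probes, 10442 were higher in direction. Gja5 thus lay on the same side as the means of both lists and Gja4 on the opposite side, neither past the threshold. Atrial muscle markers, of which 4 of 6 lay above the background level, ranged from -0.055 to 0.35 in knockout hearts and from -0.26 to 0.044 in wild-type hearts. Of these 6 atrial markers 4 were higher in direction and 2 lower, with a median difference of 0.18. Nppa differed by 0.71, Myl7 by 0.53 and Dkk3 by -0.16. The atrial marker Bmp10 stayed under the background level in knockout and wild-type hearts alike. The part of any of these cells in the Gja5 and Gja4 values was not tested.

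Gjb2, which makes Cx26 in epithelia, read 6.46, 6.93 and 6.33 in the knockout hearts, against 6.43, 6.26 and 6.37 in the wild-type hearts. Knockout replicate 2 stood alone, and the 2 other knockout hearts lay close to the wild-type range and to the background level of 6.35. Only 4 of the 6 hearts were above that level. The difference was 0.22 with a standard error of 0.16 and a 95% interval from -0.14 to 0.58 (limma, adjusted p = 0.662). Without knockout replicate 2 it was 0.04 (adjusted p = 0.963).

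Epithelial and mesothelial markers were also highest in that heart, with a list mean of 0.18, and ranged from -0.21 to 0.18 in knockout hearts and from -0.068 to 0.11 in wild-type hearts. Of these 7 markers 6 exceeded the background level in one group or both, and Epcam, the defining epithelial adhesion gene, did not. Whether such cells account for the single high Gjb2 value was not tested.

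**Figure D2:**
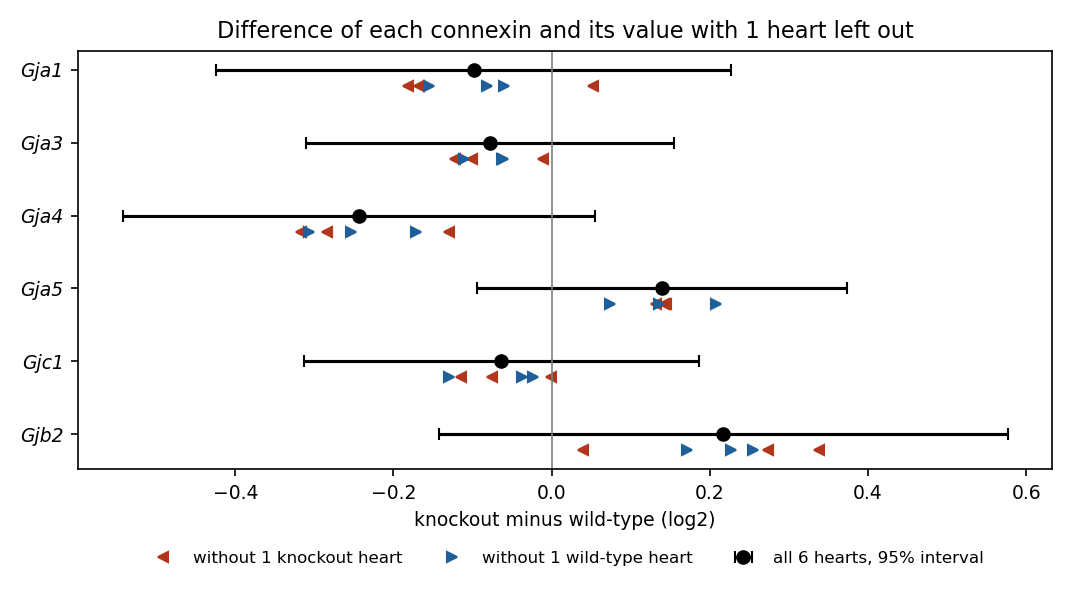
Difference of each connexin on the log2 scale (x axis, knockout minus wild-type), with black points and 95% intervals from all 6 hearts and triangles for the value with 1 knockout or 1 wild-type heart left out. Every interval crosses 0, and the triangles of Gja1 lie on both sides of 0, the positive one being the value of 0.05 without knockout replicate 1.

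The hearts that set the extremes were partly shared between genes. Gja1, Gja3 and Gjc1 were highest in wild-type replicate 1, Gja4 in wild-type replicate 2, Gja5 in knockout replicate 3 and Gjb2 in knockout replicate 2. Gja1 and Gja3 were lowest in knockout replicate 1, Gja4 in knockout replicate 2 and Gjc1 in knockout replicate 3. Gja5 was lowest in wild-type replicate 1 and Gjb2 in wild-type replicate 2. From lowest to highest heart the range was 0.48 for Gja1, 0.25 for Gja3, 0.62 for Gja4, 0.29 for Gja5, 0.27 for Gjc1 and 0.67 for Gjb2. Averaged over the 6 genes, the hearts lay between -0.073 and 0.044 in the knockout group and between -0.036 and 0.038 in the wild-type group.

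**Figure D3:**
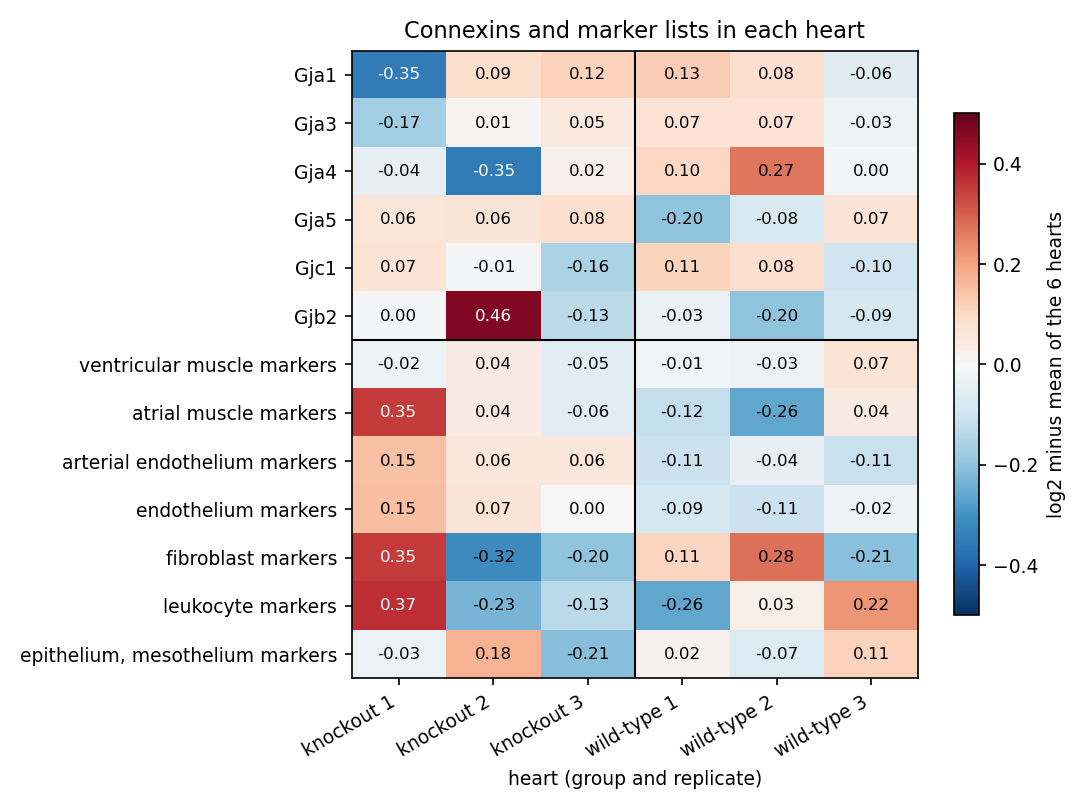
Each cell gives the log2 value of a heart (columns, group and replicate) minus the mean of the 6 hearts, for the 6 connexins and for the mean of 7 marker lists (rows). Gja1 stands at -0.35 in knockout replicate 1, where fibroblast and leukocyte markers stand at 0.35 and 0.37, and Gjb2 stands at 0.46 in knockout replicate 2, where epithelial and mesothelial markers stand at 0.18. Atrial muscle, arterial endothelium and endothelium markers are also highest in knockout replicate 1.

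Another 10 connexin genes were read from a probe with 1 symbol each. Of the 10, only Gjb5 and Gjd3 lay above the background level in a group mean, and 0 of 10 passed in either direction. Gjd3 is a connexin of the mouse conduction system. It read 8.72, 8.62 and 8.55 in the knockout hearts and 8.67, 8.54 and 8.77 in the wild-type hearts, with a difference of -0.03 (standard error 0.10, limma, adjusted p = 0.946). Its groups overlapped widely, and the sign turned without wild-type replicate 3, at 0.03, and without knockout replicate 3, at 0.012.

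Gjb5, a connexin of skin, read 6.68, 6.51 and 6.61 in the knockout hearts, against 6.71, 6.68 and 6.82 in the wild-type hearts. Its groups did not overlap, by a narrow margin and little above the background level, and it differed by -0.14 (standard error 0.10, limma, adjusted p = 0.657). Only this 1 gene of the 10 had groups free of overlap, beside 14.8% of all probes. The 10 differences ran from -0.24 for Gjd2 to 0.25 for Gjc3, both below the background level, with a median of -0.05. Some of these genes neighbour each other in the RefSeq gene table, Gja3 with Gjb2 and Gjb2 with Gjb6 on chromosome 14. Gja3 and Gjb2 differed in opposite directions, and Gjb6 lay below the background level.

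Pannexins form channels of similar shape from a separate protein family. Panx1, which releases ATP from cells, differed by -0.0028 (standard error 0.17, limma, adjusted p = 0.997), or by -0.19 without knockout replicate 1 and 0.12 without knockout replicate 3. Panx2 differed by -0.17 (standard error 0.11, limma, adjusted p = 0.648), by -0.26 without knockout replicate 2 and by -0.085 without knockout replicate 3. Panx3 lay below the background level, and 0 of 3 pannexins passed.

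Proteins that bind, phosphorylate, deliver or turn over connexins gave 0 calls among 22 measured genes. Of these 12 were higher and 10 lower in direction, with a median difference of 0.0028, and all 22 lay above the background level. With knockout replicate 1 left out the median was 0.078, and with wild-type replicate 3 left out it was -0.00037. In 6 of the 22 the groups did not overlap, 4 higher and 2 lower, beside the 14.8% of all probes.

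Ubqln4, whose product binds Cx43 and hands it to the proteasome, had the smallest unadjusted p of the list. It read 9.43, 9.54 and 9.49 in the knockout hearts, against 9.19, 9.19 and 9.28 in the wild-type hearts, and its groups did not overlap. The difference was 0.27 (standard error 0.09, limma, adjusted p = 0.455), and it passed in 0 of 16 alternatives, where its adjusted p ranged from 0.155 to 0.814.

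Modifying and carrier proteins came next. Prkce, a protein kinase C that phosphorylates Cx43, differed by 0.36 (standard error 0.15, limma, adjusted p = 0.500), and its groups overlapped. Csnk1d, a casein kinase that promotes the assembly of Cx43 into gap junctions, differed by 0.20 (standard error 0.09, limma, adjusted p = 0.516). Cnst, the gene of consortin, a receptor that carries connexins out of the trans-Golgi network, differed by 0.29 (standard error 0.14, limma, adjusted p = 0.527). Csnk1d had groups that did not overlap, while Cnst did not separate them. Without knockout replicate 1 Prkce differed by 0.52 and Cnst by 0.43, and without knockout replicate 2 both differed by 0.22, neither past the threshold in any alternative.

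Mapre1 and Dctn1, of the microtubule route to the disc, were singled out after their values were seen. Mapre1 read 9.05, 8.93 and 8.94 in the knockout hearts, against 9.36, 9.39 and 8.99 in the wild-type hearts. Wild-type replicate 3 lay inside the knockout range, so the groups overlapped, and the difference was -0.27 (standard error 0.13, limma, adjusted p = 0.529). Dctn1, a dynactin subunit, read 9.29, 9.45 and 9.40 in the knockout hearts, against 9.22, 9.09 and 9.41 in the wild-type hearts. It differed by 0.14 (standard error 0.11, limma, adjusted p = 0.697), so neither gene of that route changed by the test.

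**Figure D4:**
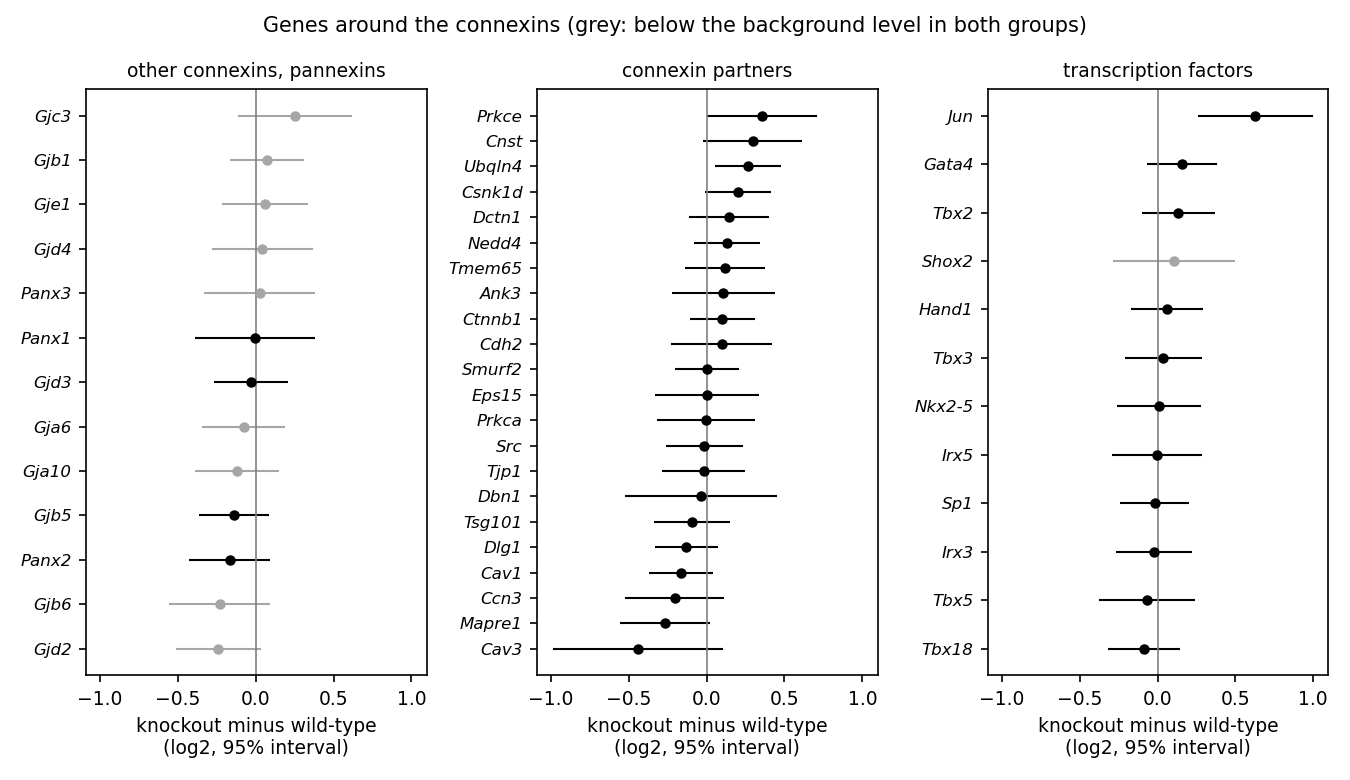
Differences on the log2 scale with 95% intervals (x axis, knockout minus wild-type) for other connexins and pannexins, for connexin partners and for transcription factors of heart connexin genes. Grey marks genes under the background level in knockout and wild-type hearts alike, and Jun, at 0.63, lies farthest from 0 among the genes drawn.

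Transcription factors known to act on heart connexin genes gave 0 calls among 12. Of these 7 were higher and 5 lower in direction, with a median difference of 0.02, and leaving out 1 heart at a time gave medians from -0.025 (knockout replicate 2 left out) to 0.078 (wild-type replicate 1 left out). Jun, the AP-1 subunit whose motif stands in the Gja1 promoter window shown above, read 10.19, 10.15 and 10.11 in the knockout hearts, against 9.20, 9.49 and 9.88 in the wild-type hearts. The groups did not overlap, and the wild-type hearts were spread far more widely. Jun differed by 0.63 (standard error 0.16, limma, unadjusted p = 0.00437, adjusted p = 0.369). It passed only without wild-type replicate 3, with a difference of 0.80 (adjusted p = 0.0365), and its adjusted p ranged from 0.0365 to 0.788 over 16 alternatives. Gja1 itself differed by -0.10, and its highest value, 12.43, was in wild-type replicate 1, where Jun was lowest. In knockout replicate 1 Jun was highest, at 10.19, and Gja1 lowest, at 11.96. Knockout replicates 2 and 3 read nearly as high for Gja1 as wild-type replicate 1, at 12.39 and 12.42, with Jun at 10.15 and 10.11. A link of Jun to Gja1 was not tested.

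Gata4, an activator of cardiac genes, differed by 0.16 (standard error 0.10, limma, adjusted p = 0.613). Tbx2, a T-box repressor of Gja1 and Gja5 in the atrioventricular canal, differed by 0.13 (standard error 0.10, limma, adjusted p = 0.686). In both the groups did not overlap, with the knockout hearts higher by a narrow margin. The lowest knockout and highest wild-type values were 10.455 and 10.447 for Gata4 and 7.884 and 7.871 for Tbx2. Without knockout replicate 1 Tbx2 differed by 0.068. With Jun, 3 of the 12 factors had groups that did not overlap, all higher, beside 7.33% of all probes. These 3 were named for their small p, which favours such separation. Tbx18, of the sinus node lineage, differed by -0.09 (standard error 0.10, limma, adjusted p = 0.791), by -0.16 without wild-type replicate 3 and by -0.051 without wild-type replicate 2. Nkx2-5 and Tbx5, which activate Gja5, differed by 0.0093 and -0.07, both with overlapping groups. Sp1, whose GC box is marked in the Gja4 and Gja5 windows, differed by -0.017 (standard error 0.10, limma, adjusted p = 0.970), also with overlapping groups.

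The genes whose values ran most like each connexin were found by Pearson's r over the 6 hearts, among 14511 probes above the background level. Between 61 probes for Gjb2 and 414 for Gja5 reached an r of 0.9 or more, so high values are common with 6 hearts and the names are a description only. Gja1 ran most like Gsap (r = 0.995) and Adsl (r = 0.994), an enzyme of purine synthesis. Gja3 ran most like Hars (r = 0.996), a histidine tRNA synthetase gene, and Nfyc (r = 0.993), a subunit of the factor NF-Y. Gja4 was closest to Rfesd and Tstd3, both with r = 0.997. Gjc1 was closest to Agrn (r = 0.990), the gene of the matrix protein agrin, and to Plppr4 (r = 0.989). Gjb2 was closest to Vps13b (r = 0.994) and Sestd1 (r = 0.978). In both of these, knockout replicate 2 was the highest heart, which a choice by likeness to Gjb2 favours.

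Gja5 ran most like Cpxm2 (r = 0.996) and Shisal1 (r = 0.996). Cpxm2, of the carboxypeptidase family, moved over a far wider range than Gja5. It read 10.16, 10.04 and 10.57 in the knockout hearts, against 6.61, 7.99 and 10.13 in the wild-type hearts. As with Gja5, wild-type replicate 3 lay among the knockout hearts and wild-type replicate 1 was lowest, which the choice by likeness favours.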

How the data were processed

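The deposited log2 expression values of 6 Affymetrix mouse gene arrays were used as the authors left them. RMA and Partek 6.6 are named, per the submitters' processing notes, without settings, and no genome build is stated in them. RNA was isolated with Trizol and an RNeasy kit, per the labels' protocols. The 35556 probes were named from the platform's annotation table, which gave 1 symbol for 21789 probes, several for 1621 and none for 12146. Entrez IDs of 21698 of the 21789 matched a RefSeq table (GRCm38.p6). Each gene was read from its probe of highest mean. The background level is the 95th percentile of the mean values of 1207 receptor probes.

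Knockout and wild-type hearts (3 each, grouped by their titles) were set against each other using limma 3.58.1 and R 4.3.3 (lmFit, eBayes, two-sided, Benjamini-Hochberg over 21789 probes, threshold 0.05). Differences are knockout minus wild-type with 95% intervals. The fit was tested on simulated data with independent errors and differences larger than that of any connexin here. That test does not cover differences of the size seen for the connexins. Signal on 3 arrays a group limits the precision.

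The members, gene lists and tests were chosen with earlier results of these data known. Named were the 6 members, other connexins and pannexins above background, the 4 partners and 4 transcription factors of smallest p, and for each member the 2 genes of highest Pearson r, predicted and receptor genes left out. The replicate numbers were used only as names of hearts, apart from the replicate block. Alternatives were 3 normalizations, 2 filters on dim probes, all probes of the table, gene means, 2 variance models, a replicate block and each array left out. Figures were drawn with matplotlib 3.10.9.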

Additional observations from a re-analysis of the deposited data

How the results depend on the processing

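The 6 connexin differences were recomputed under 16 alternatives each, 96 values in all. The adjusted p stayed above 0.05 in all 96, from 0.331 to 0.999, and the number of connexins called was 0 in each. The direction was kept in 95 of 96, the exception being Gja1 without knockout replicate 1, at 0.052. Filters on dim probes, the whole table, gene means, the trended and robust variance and the replicate block cannot move these differences. Their directions were thus fixed in advance, and only the normalizations, array weights and left-out hearts could change a direction. With 1 heart left out, the differences ranged from -0.18 to 0.05 for Gja1, -0.12 to -0.011 for Gja3, -0.32 to -0.13 for Gja4, 0.07 to 0.21 for Gja5, -0.13 to -0.00078 for Gjc1 and 0.04 to 0.34 for Gjb2. Over all probes the 6 calls became 1 when the whole table was tested, 22 with a trended and robust variance, 33 with array weights and 11 with the replicate block. They were 293 without wild-type replicate 3 and between 1 and 6 without any other heart. Deviations of hearts of the same number did not correlate positively (r = -0.114, -0.158 and -0.0031 for numbers 1, 2 and 3), while unlike numbers reached 0.139. With 3 hearts a group such a check cannot exclude a pairing, and the labels name none. With the replicate block the differences were unchanged, among them -0.24 for Gja4 (adjusted p = 0.709) and 0.14 for Gja5 (adjusted p = 0.800). Signal near the background level limits what can be said of Gjb2, and 3 hearts a group leave intervals 0.465 to 0.719 wide on the log2 scale.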

Other observations

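The 2 arterial connexins lay on opposite sides of 0, a contrast singled out after the values were seen. Gja5 minus Gja4, taken within each heart on the log2 scale, was 0.44, 0.75 and 0.40 in the knockout hearts, against 0.037, -0.0032 and 0.41 in the wild-type hearts. The means were 0.53 in knockout hearts and 0.15 in wild-type hearts. Wild-type replicate 3 lay among the knockout hearts, so the groups overlapped, and the contrast was not tested. The size of this value compares 2 probes and has no meaning as a ratio of transcripts, so only its change between hearts can be read.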
